A study of Homo sapiens with 6 samples.

Results

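The cytokines that signal through the shared receptor chain gp130, together with their receptors, STAT3 and SOCS3, were described in A549 cells after knockdown of CEP20. The 10 genes were chosen by their symbols: the ligands IL11, IL6, LIF and CLCF1, the receptor chains IL6ST (gp130), IL6R, LIFR and OSMR, the transcription factor STAT3 and the inhibitor SOCS3. They are 10 of 60624 Ensembl genes in the deposited table, and all 10 had values in each library. They were selected on this same comparison, with the TPM values of the siCEP20 and siCTR libraries known and those of IL11 above all, so the values of the 10 genes are given as a description, with no p-value.

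A549 is an established human lung adenocarcinoma line. Bulk RNA was sequenced from 3 samples transfected with an siRNA against CEP20 (siCEP20), a centrosomal protein, and from 3 transfected with a control siRNA (siCTR), each for 3 days in the same parental line. A treatment field of the labels names a plasmid transfection, and the labels and the methods also differ in the medium and the RNA kit. The labels do not say which siRNA against CEP20 was used, so an effect of losing CEP20 and an effect of the siRNA itself cannot be told apart. Nor can more RNA per cell and more cells that express a gene be told apart in bulk RNA.

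The gp130 cytokines share a receptor design. IL6 and IL11 bind IL6R and IL11RA and signal through gp130 alone, whereas LIF and oncostatin M signal through gp130 paired with LIFR or OSMR. Kinases of the JAK family bound to these chains phosphorylate STAT3, which enters the nucleus and activates genes that include SOCS3, an inhibitor that binds gp130 and the JAKs and ends the signal. In epithelial tumors IL6, IL11 and LIF are made by the tumor cells as well as by the stroma, and AP-1 (dimers of the JUN and FOS families) is known to drive IL11.

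CEP20 was at 31.6 ± 3.10 TPM (SD, n = 3) in siCTR and 16.2 ± 1.01 TPM in siCEP20, that is 51.4% of the control level (log2 fold change -0.92, limma adjusted p = 0.000205, with an exact permutation p of 0.1, the smallest that 3 against 3 allows). TPM, a transcript abundance, is a level scaled by transcript length and library total, so the depth of the libraries is unknown. Of the genes, 14429 to 14600 reached 1 TPM in the siCTR libraries and 14851 to 14987 in the siCEP20 libraries. A gene was tested where its mean over the 6 libraries was at least 1 TPM, which 14778 genes and all 10 members met. The median log2 fold change over the tested genes was 0.13 rather than 0, and a value relative to that median is given beside the changes of the 10 genes.

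The start regions of IL11 and IL6 are shown because these ligands had the largest differences among the 10 genes. Short stretches of OSMR and IL6R are shown because they too matched the AP-1 sequence searched. The middle base of the match is G in IL11 and IL6R and T in OSMR. The sequences are those of RefSeq (GRCh38.p14), written 5′ to 3′ on the strand of the gene and in lower case, with TGANTCA, the AP-1 sequence searched on both strands, in capitals. The IL11 and IL6 sequences are the 250 bases before the start site, at chr19:55370464-55370713 (minus strand) and chr7:22726950-22727199 (plus strand). The OSMR stretch spans the start site, at chr5:38846007-38846029, and the IL6R stretch lies after it, at chr1:154405372-154405392 (both plus strand).
IL11: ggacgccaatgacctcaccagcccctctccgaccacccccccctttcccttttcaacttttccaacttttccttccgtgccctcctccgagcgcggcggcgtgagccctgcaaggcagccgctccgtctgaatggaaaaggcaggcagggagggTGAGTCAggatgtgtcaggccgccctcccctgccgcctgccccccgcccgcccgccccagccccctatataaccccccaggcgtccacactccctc
IL6: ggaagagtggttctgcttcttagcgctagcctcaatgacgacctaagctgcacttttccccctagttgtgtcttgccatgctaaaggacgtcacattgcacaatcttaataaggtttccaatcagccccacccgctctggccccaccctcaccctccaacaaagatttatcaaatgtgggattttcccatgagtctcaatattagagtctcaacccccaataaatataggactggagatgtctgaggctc
OSMR: cccgcagcTGATTCAtagccccg
IL6R: cgccgctcTGAGTCAtgtgcg
The AP-1 sequence of IL11 began at position -96, that of OSMR at position 4 and that of IL6R at position 38, counted from the start site. Windows of 300 bases, from 250 before to 50 after the start, were found for 8 of the 10 genes. LIF and CLCF1 were not in the table. Of all 35116 windows in the table, 2707 (7.71%) held TGANTCA, and 2689 (7.66%) held the STAT sequence TTCNNNGAA. Among the members the STAT sequence was found in 2 of the 3 windows of LIFR only, and neither sequence was in the windows of IL6, IL6ST, STAT3 or SOCS3. The start site of the IL11 window was the gene start in GENCODE release 44. Those of SOCS3 lay 848 and 410 bases from the GENCODE start, that of IL6 1316 bases and those of LIFR at least 12949 bases. A match of letters is a description of the window and no measure of binding.

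IL11 was the member with the largest difference. IL11 (ENSG00000095752, chr19:55364382-55370463, minus strand, hg38) encodes a secreted cytokine of the IL6 family. Its level was 53.3, 53.4 and 55.2 TPM in siCTR replicates 1, 2 and 3, and 140.0, 148 and 148 TPM in the siCEP20 replicates. The groups were far apart and the replicates close together, with a coefficient of variation of 2.00% in siCTR and 3.18% in siCEP20. The means were 54.0 ± 1.08 and 145 ± 4.62 TPM (SD, n = 3), a ratio of 2.69, and the log2 fold change on the scale of TPM + 1 was 1.41 (standard error 0.0552), or 1.28 relative to the median of the genes tested. Ranked by log2 fold change from the highest, IL11 was at place 73 of the 14778 tested genes. Its log2 fold change ran from 1.26 to 1.44 over the 15 alternative settings.

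IL6 (ENSG00000136244, chr7:22725884-22732002, plus strand), the founding ligand of the family and a driver of the acute-phase response, differed less and varied more. Its level was 17.99, 20.8 and 28.0 TPM in the siCTR replicates and 33.2, 31.9 and 39.2 TPM in the siCEP20 replicates. The groups did not overlap, and siCTR replicate 3 lay nearest to the siCEP20 libraries. The means were 22.3 ± 5.19 and 34.8 ± 3.89 TPM (SD, n = 3), a ratio of 1.56, with a log2 fold change of 0.64 (standard error 0.154), or 0.51 relative to the median. IL6 lay just past the fold threshold of 1.5, and its log2 fold change was 0.50 without siCTR replicate 1, 0.55 without siCEP20 replicate 3 and 0.81 without siCTR replicate 3. After median-of-ratios scaling of the libraries it was 0.49.

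The ranges of the other ligands overlapped between the groups. LIF (ENSG00000128342, chr22:30240453-30246759, minus strand), which signals through LIFR and gp130, was at 139.9, 137 and 149 TPM in siCTR and at 129.5, 140.5 and 128 TPM in siCEP20. The lowest value was siCEP20 replicate 3 and the highest siCTR replicate 3, while siCEP20 replicate 2 lay above siCTR replicates 1 and 2. The log2 fold change of LIF was -0.10 (standard error 0.0619), or -0.23 relative to the median. CLCF1 (ENSG00000175505, chr11:67364168-67374177, minus strand), a ligand of the CNTF receptor complex, was at 32.2, 31.9 and 35.2 TPM in siCTR and at 33.7, 35.8 and 34.5 TPM in siCEP20. Its highest values were siCTR replicate 3 and siCEP20 replicate 2, with a log2 fold change of 0.07 (standard error 0.0697; -0.07 relative to the median) that had the opposite sign under both scaling alternatives. CLCF1 shares its position with RAD9A on the opposite strand and with ENSG00000256514, an annotated gene on the same strand at a mean of 60.7 TPM, and LIF with LIF-AS2 on the opposite strand, so both levels are uncertain as far as reads of these neighbours could be assigned to them.

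**Figure D1:**
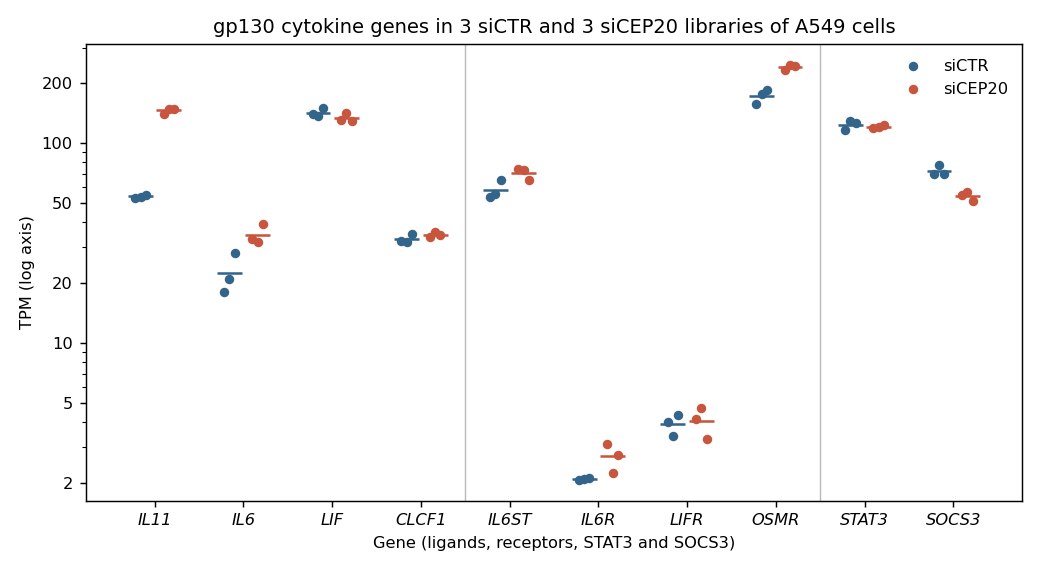
TPM on a log axis for each of the 10 genes in the 3 siCTR and 3 siCEP20 libraries, with a point for each library and a bar at the group mean. The IL11 points of siCEP20 (140.0 to 148 TPM) lie far above those of siCTR (53.3 to 55.2 TPM), the SOCS3 points lie below, and the points of LIF, CLCF1, LIFR and STAT3 overlap.

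Since TPM is scaled by length, the levels of the ligands can be set beside each other. The 4 ligand genes summed to 243, 243 and 268 TPM in siCTR and to 336, 356.5 and 349.5 TPM in siCEP20. LIF held the largest share in siCTR, 56.5% ± 0.873 (SD, n = 3), and 38.2% ± 1.39 in siCEP20. IL11 held 21.9%, 22.0% and 20.6% of the sum in the siCTR replicates and 41.6%, 41.6% and 42.2% in the siCEP20 replicates. The order of these ligands was thus exchanged in the means, with a ratio of IL11 to LIF of 0.381 ± 0.0105 in siCTR and 1.10 ± 0.0498 in siCEP20. The share of IL6 was 8.81% ± 1.55 in siCTR and 10.0% ± 1.14 in siCEP20, and that of CLCF1 13.2% ± 0.0586 and 9.99% ± 0.0964. A share needs no scaling between libraries, since each is computed within a library.

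**Figure D2:**
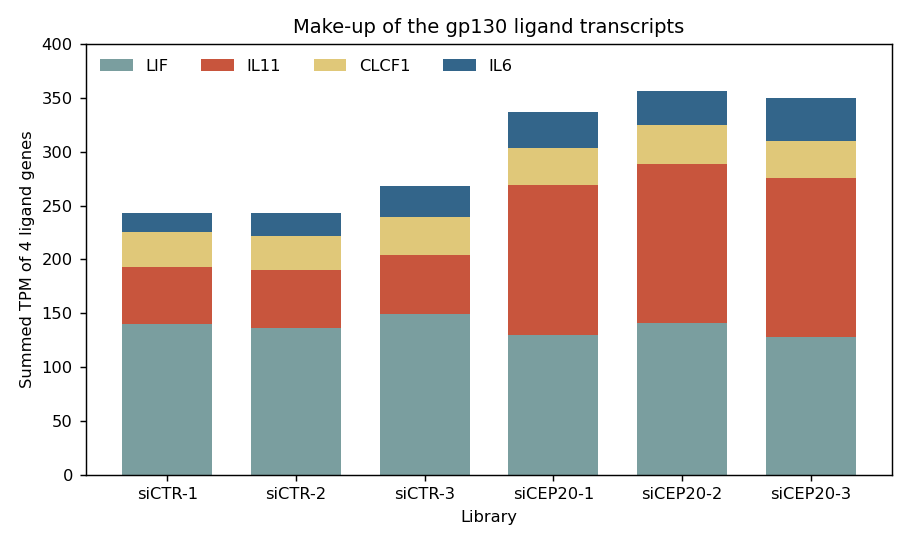
Stacked bars of the TPM of LIF, IL11, CLCF1 and IL6 in each library, starting at 0. The IL11 segment takes 20.6% to 22.0% of the bar in siCTR and 41.6% to 42.2% in siCEP20, while the LIF segment is of like height in all 6 libraries.

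Of the 4 receptor chains among the members, OSMR had the largest log2 fold change. OSMR (ENSG00000145623, chr5:38845858-38945596, plus strand), the chain that pairs with gp130 for oncostatin M, was at 157, 175 and 185 TPM in siCTR and at 232, 246 and 242 TPM in siCEP20. It was higher in every siCEP20 library, with means of 172 ± 14.2 and 240.0 ± 7.56 TPM (SD, n = 3), a ratio of 1.39 and a log2 fold change of 0.48 (standard error 0.0691), or 0.35 relative to the median. OSMR was also the most abundant of the 10 genes in both groups. Its neighbour RICTOR overlaps it on the opposite strand at a mean of 18.4 TPM.

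IL6ST (ENSG00000134352, chr5:55935095-55995022, minus strand), which encodes gp130 itself, was at 53.9, 55.8 and 65.0 TPM in siCTR and at 73.7, 73.6 and 65.3 TPM in siCEP20. The groups only just failed to overlap, since siCTR replicate 3 and siCEP20 replicate 3 were nearly level. The log2 fold change was 0.28 (standard error 0.0876), or 0.15 relative to the median. IL6ST is overlapped on the opposite strand by ENSG00000264281, at a mean of 38.3 TPM. IL6R (ENSG00000160712, chr1:154405193-154469450, plus strand), the chain that binds IL6, was low, at 2.06, 2.09 and 2.12 TPM in siCTR and 3.13, 2.22 and 2.75 TPM in siCEP20. It too was higher in each siCEP20 library, with siCEP20 replicate 2 close to the siCTR values, and the log2 fold change was 0.25 (standard error 0.148), or 0.12 relative to the median. LIFR (ENSG00000113594, chr5:38474668-38608354, minus strand), which pairs with gp130 for LIF, was at 3.998, 3.44 and 4.34 TPM in siCTR and at 4.15, 4.74 and 3.30 TPM in siCEP20. Its groups overlapped, and its log2 fold change of 0.03 (standard error 0.148; -0.10 relative to the median) changed sign in 4 of 14 alternative settings.

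The chains were present in very unequal amounts. The level of IL6ST was 27.9 ± 2.47 times that of IL6R in siCTR and 26.8 ± 5.48 times in siCEP20 (SD, n = 3). OSMR was 44.3 ± 6.09 times LIFR in siCTR and 60.4 ± 11.5 times in siCEP20. OSMR also exceeded IL6ST, the chain it pairs with, by 2.96 ± 0.157 times in siCTR and 3.40 ± 0.290 times in siCEP20.

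Downstream of the receptors, STAT3 overlapped between the groups and SOCS3 was lower in siCEP20. STAT3 (ENSG00000168610, chr17:42313324-42388540, minus strand) was at 116, 129 and 125 TPM in siCTR and at 118, 120.3 and 123 TPM in siCEP20. All 3 siCEP20 values lay within the siCTR range, and the log2 fold change was -0.03 (standard error 0.0599), or -0.16 relative to the median. Its sign turned without siCTR replicate 2, with a log2 fold change of 0.0019. The activity of STAT3 depends on its phosphorylation, which RNA does not measure. SOCS3 (ENSG00000184557, chr17:78356778-78360077, minus strand), the inhibitor that STAT3 itself induces, was at 70.1, 77.5 and 70.2 TPM in siCTR and at 54.8, 56.5 and 51.1 TPM in siCEP20. It was lower in every siCEP20 library and the groups did not overlap. The means were 72.6 ± 4.21 and 54.1 ± 2.77 TPM (SD, n = 3), so the siCEP20 mean was 74.5% of the siCTR mean, with a log2 fold change of -0.42 (standard error 0.0695), or -0.55 relative to the median. The log2 fold change of SOCS3 was below 0 in all 15 alternative settings, from -0.57 to -0.37.

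**Figure D3:**
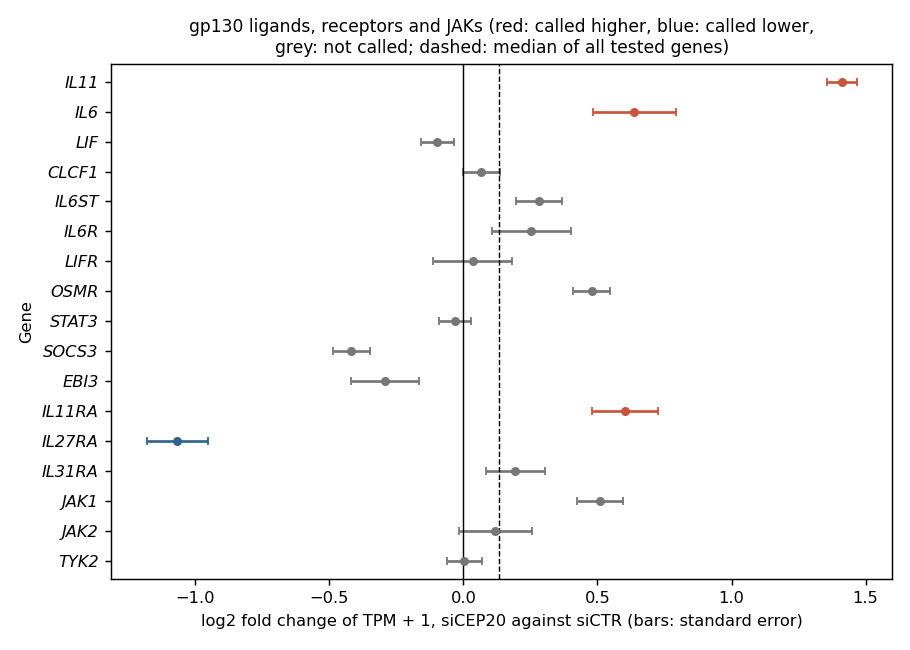
Log2 fold change of TPM + 1, siCEP20 against siCTR, for the 10 genes, followed by the other tested gp130 ligand and receptor genes and the JAKs, with bars of 1 standard error, genes called higher in red and lower in blue, and a dashed line at the median of all tested genes (0.13). IL11 stands at 1.41, IL6 at 0.64 and OSMR at 0.48, STAT3 and LIFR lie beside 0, and SOCS3 stands at -0.42.

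A gene was called where limma's Benjamini-Hochberg adjusted p-value over all tested genes was under 0.05 and the fold change over 1.5 or under 0.67. Among the 10 members IL11 and IL6 met both as higher and none as lower, while 11.2% of all tested genes were called higher and 4.61% lower. By the adjusted p-value alone IL11, IL6, IL6ST and OSMR were higher and SOCS3 lower, against 30.2% and 13.2% of the genes tested. In the same way, the siCEP20 values lay wholly above the siCTR values for 5 members and wholly below for 1, against 38.4% and 17.0% of the tested genes. The median log2 fold change of the 10 genes was 0.16, beside 0.13 over all tested genes. The members were chosen on these values, so nothing is read from these counts.

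Ranked by level, IL11 took a different place in each group. In siCTR the order from the highest was OSMR, LIF, STAT3, SOCS3, IL6ST, IL11, CLCF1, IL6, LIFR and IL6R. Only IL6ST and IL11 overlapped there among neighbours. In siCEP20 it was OSMR, IL11, LIF, STAT3, IL6ST, SOCS3, IL6, CLCF1, LIFR and IL6R. IL11 was thus sixth in siCTR and second in siCEP20, though its range met that of LIF, and the ranges of IL6 and CLCF1 overlapped too.

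The 5 genes whose pattern over the 6 libraries was most like that of IL11, by the root mean square difference of log2(TPM + 1) after centring each gene, were THBD, B4GALT1, CCN1, SNAI1 and TNS4. THBD, which encodes thrombomodulin, was closest with a difference of 0.0474, and its level was 7.15 ± 0.584 TPM in siCTR and 20.8 ± 0.565 TPM in siCEP20 (SD, n = 3). The differences of the other 4 ran from 0.0619 for B4GALT1, a galactosyltransferase, to 0.0686 for TNS4, a tensin of focal adhesions. SNAI1, a repressor of E-cadherin known from epithelial-mesenchymal transition, was at 9.95 ± 0.473 and 27.7 ± 2.61 TPM, and CCN1, a matricellular protein, at 85.4 ± 7.19 and 236 ± 11.0 TPM. Since these genes were chosen by their likeness, their change is a description. CDH1, which encodes E-cadherin and is named here after its values were seen, was higher in siCEP20 as well. Its level was 11.8 ± 0.682 TPM in siCTR and 23.2 ± 1.18 TPM in siCEP20 (SD, n = 3; log2 fold change 0.92, limma adjusted p = 0.000128).

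The other genes of gp130 signalling were taken from 5 lists: other ligands, other receptors, kinases and adaptors, inhibitors with sheddases, and genes known to be induced by STAT3. Of the 63 genes listed, 52 were tested, and 12 of these rose and 1 fell, a share of 23.1% called higher beside 11.2% of all tested genes, which had 4.61% called lower. Their median log2 fold change was 0.25, beside 0.13 over all tested genes. Under median-of-ratios scaling and under quantile normalization, 7 were called higher and 2 lower in each, so that 77.8% of the calls were higher in place of 92.3%. These 5 lists were chosen with earlier results of these data known, so nothing is read from the shares called.

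Of the 6 other ligands only EBI3 reached the level for testing, and it was not called. IL27 and IL31 were listed at 0 in all 6 libraries and OSM, the ligand of OSMR, was at 0 in 5 of them and at 0.124 TPM in siCTR replicate 2. CNTF was at 0.616 ± 0.185 TPM in siCTR and 0.768 ± 0.283 TPM in siCEP20 (SD, n = 3). CTF1, cardiotrophin, was below the limit for testing, at 0.446, 0.405 and 0.541 TPM in siCTR and 1.399, 1.10 and 1.49 TPM in siCEP20, with no overlap (exact permutation p = 0.1, two-sided, the smallest the design allows), and it was called higher when no filter on low TPM was applied. EBI3, a subunit of the cytokine IL27, was at 26.4 ± 2.34 and 21.5 ± 3.76 TPM (SD, n = 3; log2 fold change -0.29, limma adjusted p = 0.0938). It stood at -0.44 with median-of-ratios scaling (adjusted p = 0.0187) and -0.43 with quantile normalization (adjusted p = 0.0217), short of the fold threshold. The adjusted p-value was otherwise under 0.05 only with the replicate block (0.0308) and without siCEP20 replicate 3 (0.0208).

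IL11RA, the chain that binds IL11, rose. It was at 4.04, 4.89 and 5.48 TPM in siCTR and at 7.68, 8.34 and 7.33 TPM in siCEP20, with no overlap. The log2 fold change was 0.60 (standard error 0.123, limma adjusted p = 0.00536), or 0.47 relative to the median. The change lay near the fold threshold, and the call was lost under median-of-ratios scaling (0.47), under quantile normalization (0.43), without siCTR replicate 1 (0.51) and without siCEP20 replicate 2 (0.56), each time with an adjusted p-value under 0.05. IL6ST was 12.2 ± 0.995 times IL11RA in siCTR and 9.11 ± 0.424 times in siCEP20. IL27RA, the chain for IL27, fell from 12.2 ± 0.752 to 5.31 ± 0.755 TPM (log2 fold change -1.07, adjusted p = 0.000273). IL31RA was at 5.28 ± 0.551 and 6.16 ± 0.228 TPM (adjusted p = 0.188), and CNTFR at no more than 0.178 TPM in any library.

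Of the 11 kinases and adaptors, 1 was called higher (9.09%) and none lower, beside 11.2% and 4.61% of all tested genes. By the adjusted p-value alone 4 were higher and 1 lower, against 30.2% and 13.2% of the genes tested. The gene called higher was SOS1, the exchange factor that links the receptors to RAS. It was at 10.0 ± 0.608 and 16.0 ± 1.04 TPM (SD, n = 3), with a log2 fold change of 0.62 (limma adjusted p = 0.00101). Its call was lost under both scaling alternatives, with 0.48 and 0.47, without siCTR replicate 3, with 0.58, and without siCEP20 replicate 2, with 0.57. JAK1, the main kinase bound to gp130, was at 152, 163 and 192 TPM in siCTR and at 237, 247 and 234 TPM in siCEP20, with a log2 fold change of 0.51 (adjusted p = 0.00208) that did not pass the fold threshold. JAK2 was at 4.78 ± 0.371 and 5.31 ± 0.866 TPM (adjusted p = 0.512), and TYK2 at 35.7 ± 0.619 and 35.8 ± 1.54 TPM (adjusted p = 0.97). SHC1, an adaptor and the most abundant gene of the list that was not called, was at 236 ± 7.33 and 233 ± 6.10 TPM (adjusted p = 0.779).

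Of the 12 inhibitors and sheddases, 1 was called higher (8.33%) and none lower, beside 11.2% and 4.61% of all tested genes. By the adjusted p-value alone 4 were higher and 1 lower, against 30.2% and 13.2% of the genes tested. PIAS1, a SUMO ligase that restrains STAT proteins, was at 9.20 ± 1.03 and 15.2 ± 0.521 TPM (SD, n = 3; log2 fold change 0.67, limma adjusted p = 0.00108), and its call was lost under both scaling alternatives, with 0.53 and 0.51. ADAM17, a protease that sheds IL6R from the cell surface, was at 88.2 ± 7.52 and 84.5 ± 3.00 TPM (adjusted p = 0.555). SOCS1, the relative of SOCS3 and named here after its values were seen, was at 2.67 and 2.72 TPM in the means (adjusted p = 0.896).

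Of the 25 tested genes known to be induced by STAT3, 9 rose and none fell, a share of 36.0% called higher beside 11.2% of all tested genes. Their median log2 fold change was 0.37, or 0.23 relative to the overall median. As this list was chosen with earlier results of these data known, its share and p-values are a description. BCL3, an atypical member of the IκB family, was at 78.8, 88.5 and 75.5 TPM in siCTR and at 187, 198 and 206 TPM in siCEP20, with a log2 fold change of 1.27 (standard error 0.0734, limma adjusted p = 3.12e-05). JUNB, a JUN family protein, rose from 155 ± 2.39 to 267 ± 12.6 TPM (SD, n = 3; log2 fold change 0.78, adjusted p = 5.22e-05), and CEBPD, a C/EBP factor of the acute-phase response, from 44.5 ± 0.201 to 78.6 ± 4.17 TPM (0.81, adjusted p = 7.33e-05). The other genes called were FGB, FOS, LBP, MYC, PIM1 and VEGFA. The closely related CEBPB, the most abundant gene of the list that was not called, was at 599 ± 29.7 and 722 ± 32.9 TPM (0.27, adjusted p = 0.00603).

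The list held genes of both directions. By the adjusted p-value alone 17 of the 25 genes were higher, against 30.2% of all tested genes. Lower were 4, namely MCL1, CCND1, TIMP1 and FGL1, against 13.2% of all tested genes. MCL1, a survival protein of the BCL2 family named here after its values were seen, was at 174 ± 17.3 TPM in siCTR and 120.3 ± 3.29 TPM in siCEP20 (SD, n = 3), a log2 fold change of -0.53 (limma adjusted p = 0.00115), and was called lower under both scaling alternatives. The calls were then 7 higher and 1 lower in each, so that 87.5% of the calls in the list were higher, whereas all 9 were higher without scaling. Many of these genes, MYC, FOS, JUNB and VEGFA among them, respond to other pathways as well. The secreted acute-phase genes HP and CRP were listed at 0 in all libraries. Of the genes named from these lists, JAK1, SOCS1, PIAS1, ADAM17, JUNB, CEBPB, MCL1 and CCND1 overlap a gene on the opposite strand and SHC1 one on the same strand, so their reads may be shared.

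**Figure D4:**
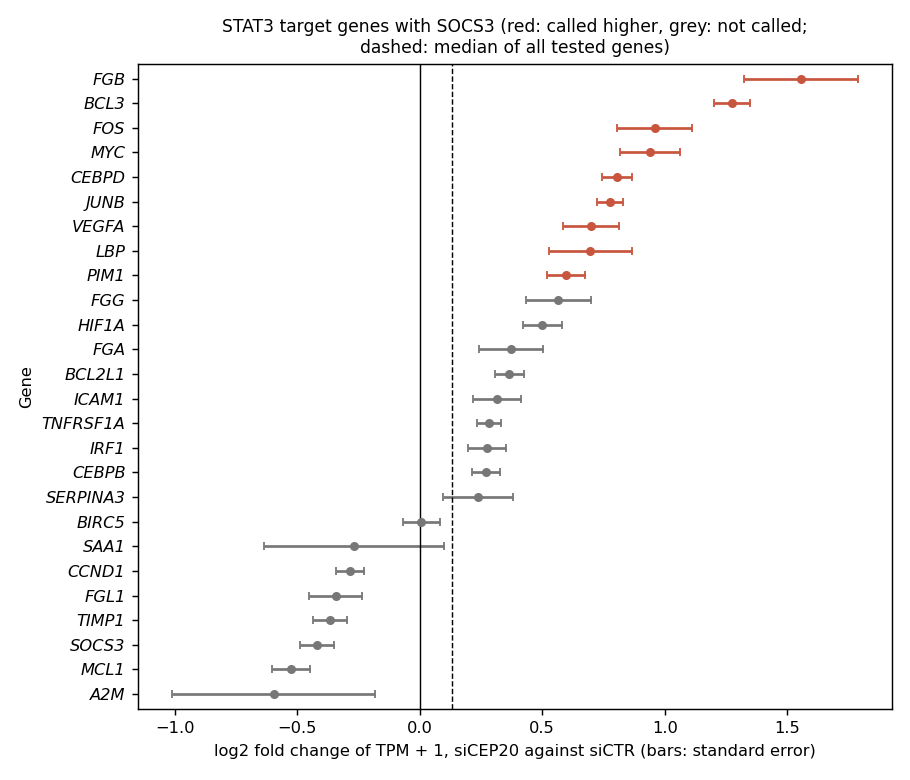
Log2 fold change of TPM + 1, siCEP20 against siCTR, for SOCS3 and the 25 tested genes of the STAT3 list, with bars of 1 standard error, called genes in red and a dashed line at the median of all tested genes (0.13). BCL3 (1.27), CEBPD (0.81) and JUNB (0.78) lie to the right, and MCL1 (-0.53) and SOCS3 (-0.42) to the left.

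A list of 13 genes linked to IL11 transcription held TGF-β with its receptors and SMADs, genes of the JUN and FOS families that bind AP-1 sequences, ATF3 and RUNX2. All 13 were tested, and 8 rose and none fell, a share of 61.5% called higher beside 11.2% of all tested genes. Their median log2 fold change was 0.72, or 0.59 relative to the median. This list too was chosen with earlier results of these data known, so its share and p-values are a description. JUN was at 57.8, 60.4 and 59.9 TPM in siCTR and at 118, 129 and 135 TPM in siCEP20, with a log2 fold change of 1.09 (standard error 0.0651, limma adjusted p = 3.54e-05). SMAD2, a mediator of TGF-β signals, rose from 73.4 ± 4.44 to 144 ± 5.33 TPM (SD, n = 3; 0.97, adjusted p = 4.91e-05), and JUND from 104 ± 8.54 to 214 ± 6.79 TPM (1.04, adjusted p = 5.03e-05). The other genes called were FOSL2, TGFB1, TGFB2, TGFBR1 and TGFBR2. SMAD3, the most abundant gene that was not called, was at 175 ± 7.498 and 211 ± 8.57 TPM (0.27, adjusted p = 0.00687). Under median-of-ratios scaling 5 of the 13 were called higher and under quantile normalization 7. TGFB1 overlaps HNRNPUL1, at a mean of 521 TPM, on the opposite strand, and its level is uncertain to that extent, while TGFB2 overlaps TGFB2-AS1 on the opposite strand and SMAD2 overlaps MTCO2P2 on the same strand, each at a low level. Whether any of these genes had a part in the level of IL11 was not tested.

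Markers of other cells were checked beside the members, since IL6 and IL11 are also made by stromal and immune cells. All 5 epithelial markers reached 1 TPM, with a sum of 3230 to 3299 TPM in siCTR and 4187 to 4367 TPM in siCEP20. KRT8 and KRT18, which overlap on opposite strands, made up most of this sum, while EPCAM was low, at 0.834 to 1.24 TPM in siCTR and 3.01 to 3.85 TPM in siCEP20. Of the 5 epithelial markers EPCAM and CDH1 were called higher (log2 fold changes 1.10 and 0.92), and by the adjusted p-value alone all 5 were higher. The 7 fibroblast markers summed to 12.1 to 15.2 TPM in siCTR and to 31.2 to 35.2 TPM in siCEP20. COL1A2 and DCN were at 0 in every library, and COL1A1 and THY1 were the only fibroblast markers to reach 1 TPM. Both were called higher. COL1A1 rose from 5.52 ± 0.333 to 18.85 ± 1.15 TPM (SD, n = 3; log2 fold change 1.61, limma adjusted p = 3.12e-05), and was called under both scaling alternatives as well. THY1 rose from 8.16 ± 1.30 to 13.94 ± 0.917 TPM (0.71, adjusted p = 0.00234), and its call was lost under both, with 0.58 and 0.55. The 6 leukocyte markers summed to 25.6 to 35.6 TPM in siCTR and to 37.9 to 57.0 TPM in siCEP20, with CD3E at 0 in every library and PTPRC at no more than 0.0183 TPM. CD68 and CD14 held most of this sum. CD14 was at 9.05 ± 1.80 TPM in siCTR and 7.905 ± 0.843 TPM in siCEP20 (SD, n = 3; log2 fold change -0.16, limma adjusted p = 0.397). CD79A was at 1.34 ± 0.536 and 2.19 ± 0.397 TPM (0.46, adjusted p = 0.101). Of the 3 leukocyte markers tested, only CD68 was called. Over all tested genes, 11.2% were called higher and 4.61% lower. CD68 rose from 18.9 ± 3.97 to 33.8 ± 10.0 TPM (0.79, adjusted p = 0.0161). That call was lost with no filter on low TPM (adjusted p = 0.0877), without siCTR replicate 1 (0.64, adjusted p = 0.0595) and without siCEP20 replicate 3 (0.56, adjusted p = 0.0312). CD68 overlaps ENSG00000264772 on the same strand, at a mean of 22.9 TPM, and ENSG00000233223 on the opposite strand, at 20.5 TPM. The level of CD68 is uncertain to that extent. None of the 5 endothelial markers reached 1 TPM. The part of these differences in the levels of IL11 and IL6 was not tested.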

How the data were processed

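The RNA-seq samples of A549 cells, 3 siCTR and 3 siCEP20, were grouped by their labels. According to the submitters' processing notes and the methods, the authors trimmed reads with fastp 0.20.1, aligned them to hg38 with HISAT2 2.1.0 and quantified genes with StringTie 2.0. The authors deposited TPM per Ensembl gene in a single table. TPM holds no counts, so the depth of each sample is unknown and precision rests on the replicates. The annotation release and the use of strand in quantification are not given in the sources used here, and the main overlaps between genes are named in the text. The study's count-based test was replaced for that reason. The labels do not say that replicates were separate cultures, so p-values measure only the spread between these samples, which may be technical.

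Symbols came from GENCODE release 44 (60370 of 60624 IDs). Genes averaging 1 TPM or more over the 6 libraries were fitted on the log2(TPM + 1) scale by limma 3.58.1 under R 4.3.3 (eBayes with trend, no covariate), with Benjamini-Hochberg adjustment. Fold changes on this scale understate those of low genes. The thresholds were those of the study (folds of 1.5 and 0.67, adjusted p-value of 0.05). The script was tested on simulated data. Python 3.11.15, pandas 2.3.3, numpy 2.4.6, scipy 1.17.1 and matplotlib 3.10.9 were used. RefSeq start windows were searched for AP-1 and STAT sequences, and protein sequences were not used here.

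The members and all lists were chosen with earlier results of these data known, and 1 listed gene is not reported here. Named were the members, CEP20, the other ligands, receptors and JAKs, and in each other list the 3 called genes with the smallest adjusted p and the most abundant gene not called. As alternatives, the fit was repeated with quantile normalization, with median-of-ratios scaling, with a pseudocount of 0.1, with no filter or one at 5 TPM, with a replicate block, with no trend in eBayes, with no fold threshold, on protein-coding genes only, and without each library in turn.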

Additional observations from a re-analysis of the deposited data

How the results depend on the processing

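The scaling between libraries and the fold threshold moved the counts most. Of all tested genes, 1659 were called higher and 682 lower. With median-of-ratios scaling these were 894 and 1103, with quantile normalization 923 and 1016, and with no fold threshold 4457 and 1944, so that 70.9% of the calls were higher as deposited, 44.8% after median-of-ratios scaling and 47.6% after quantile normalization. The other genes of gp130 signalling went from 12 higher and 1 lower to 7 and 2 under either scaling and to 26 and 7 with no fold threshold. Of the members, 1 was called higher, IL11, with no filter and under either scaling, and 4 higher and 1 lower with no fold threshold. IL11 was called in 15 of 15 alternatives and IL6 in 10 of 15. With 1 library left out, all genes gave 1372 to 1890 higher and 611 to 705 lower, the other genes of gp130 signalling 10 to 15 higher and 1 to 2 lower, the members 1 to 2 higher and 0 lower, and CEP20 a log2 fold change of -0.97 to -0.84. IL6 was the call lost, without siCTR replicate 1 and without siCEP20 replicate 3. The sign turned for genes that were not called: among the members LIFR in 4 settings, CLCF1 in 2 and STAT3 in 1, and outside them JAK2 (-0.0075 with median-of-ratios scaling, -0.0622 with quantile normalization), TYK2 (-0.14 and -0.13 with these, -0.0308 to 0.0229 with 1 library left out) and SHC1 (-0.0398 to 0.0043 with 1 library left out). No pairing by replicate number was seen, as deviations of same-numbered libraries had correlations of 0.157, -0.0614 and -0.0623 and not every library was closest to its own number. With 3 libraries per group these correlations cannot decide whether the samples were paired. With the replicate block, 1654 genes were called higher and 694 lower, the other genes of gp130 signalling were again 12 and 1, the members 2 and 0, and CEP20 had -0.92 (limma adjusted p = 0.000693). The cause of these shifts was not tested. Without counts, the precision of low genes such as IL6R and LIFR is unknown beyond the spread of 3 replicates, and RNA levels hold no measure of secreted cytokine or of STAT3 phosphorylation.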

Other observations

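Other cytokines outside the gp130 family were described from a list of 20 genes, of which 13 were tested, and 5 rose and 1 fell, while 11.2% of all tested genes were called higher and 4.61% lower. CSF3, the granulocyte colony-stimulating factor, was at 3.11, 2.33 and 2.41 TPM in siCTR and at 14.8, 16.3 and 13.9 TPM in siCEP20, with no overlap, a log2 fold change of 2.15 (standard error 0.121) and a limma adjusted p of 3.12e-05. CSF1, the growth factor of macrophages, rose from 64.7 ± 1.58 to 116 ± 2.93 TPM (SD, n = 3; log2 fold change 0.83, adjusted p = 4.77e-05). CXCL1, a neutrophil chemokine, rose from 268 ± 32.3 to 513 ± 51.3 TPM (0.94, adjusted p = 0.000289), whereas its relative CXCL2, the most abundant gene that was not called, was at 165 ± 29.2 and 212 ± 5.27 TPM (0.37, adjusted p = 0.0322). CCL2 and IL32 were the other genes called higher, and IL23A, a subunit of a cytokine that acts on T cells and named here after its values were seen, fell from 5.09 ± 0.755 to 2.69 ± 0.490 TPM (-0.72, adjusted p = 0.00655). The median log2 fold change of the list was 0.28, or 0.15 relative to that of the genes tested. Earlier results of these data were known when the list was chosen, so its counts and p-values are a description. The same counts of 5 higher and 1 lower were found under both scaling alternatives.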
